A study of Mus musculus with 6 samples.

Results

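Ms4a genes encode small membrane proteins that cross the membrane 4 times, and 8 of them were read in FAPs, fibro/adipogenic progenitors, which are stromal cells that lie between the fibres of skeletal muscle. The 8 were Ms4a4a, Ms4a4b, Ms4a4c, Ms4a4d, Ms4a6b, Ms4a6c, Ms4a6d and Ms4a7. They were chosen by name, with earlier results of these arrays known, and among several probe sets of a gene the one with the highest mean level over all arrays was selected. Each of the 8 had exactly 1 probe set, so no choice had to be made among them. The 8 are part of 19938 named genes of the value table and of 19 Ms4a genes with a probe set of 1 symbol. Male C57Bl/6 mice, 8 to 12 weeks old and wild type, had 30 µL of 50% glycerol injected into the tibialis anterior, a chemical injury of the muscle. A vivo-morpholino (VMO), an antisense oligomer that enters cells of the living animal and masks a site on an RNA, followed 3 days later, and FAPs were isolated 2 days after it. The study concerns intronic polyadenylation of Pdgfra, the gene of a receptor for platelet-derived growth factor. The 3 groups received a control VMO, the pA-VMOs (here pA-VMO), which are known from the study to mask polyadenylation sites within an intron of that gene, or the 5'ss-VMO, which masks a splice site. There were 2 arrays per group, and cells of 4 mice were pooled for each, so the spread between arrays is that between pools. All 3 groups shared the injury and the injection of an oligomer, and no uninjured or uninjected muscle was analysed here.

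The best known members of the family are Ms4a1, the B cell antigen CD20, and Ms4a2, the beta chain of the mast cell receptor for IgE. Several other members have been described in cells of the blood lineage: Ms4a4a and Ms4a7 on macrophages, and Ms4a4b on T cells, where it has been described as a partner of the costimulatory receptor Tnfrsf18. Ms4a4a has been described as a partner of the fungal receptor Clec7a on macrophages and Ms4a6d as a partner of the complement receptor Vsig4. The genes lie in a row on chromosome 19, and the Ms4a4 and Ms4a6 subfamilies arose there as close copies, so the probes of 1 member may also read another.

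Some of these copies also share promoter sequence, and the 2 pairs with the most identical positions in a local alignment are printed here. RefSeq (GRCm38.p6) gave a promoter of 300 bases, 250 before and 50 after the start site, for 7 of the 8 members. Ms4a4c is at chr19:11407411-11407710, Ms4a4b at chr19:11443308-11443607, Ms4a6c at chr19:11469118-11469417 and Ms4a6b at chr19:11518309-11518608, all on the plus strand. Capitals mark matches, on either strand, to an interferon regulatory factor element, GAAANNGAA, or to an ETS-type element, AGGAAGT.
Ms4a4c: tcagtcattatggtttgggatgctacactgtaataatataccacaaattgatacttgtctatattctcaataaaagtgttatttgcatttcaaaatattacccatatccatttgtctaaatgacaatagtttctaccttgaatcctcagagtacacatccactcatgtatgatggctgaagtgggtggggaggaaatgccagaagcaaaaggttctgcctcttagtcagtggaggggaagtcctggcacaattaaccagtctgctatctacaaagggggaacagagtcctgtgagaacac
Ms4a4b: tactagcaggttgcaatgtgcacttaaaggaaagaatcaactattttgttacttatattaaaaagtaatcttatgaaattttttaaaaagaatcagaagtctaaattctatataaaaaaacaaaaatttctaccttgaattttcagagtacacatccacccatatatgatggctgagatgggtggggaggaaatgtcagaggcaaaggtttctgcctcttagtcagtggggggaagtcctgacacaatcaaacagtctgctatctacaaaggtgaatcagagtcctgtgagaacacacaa
Ms4a6c: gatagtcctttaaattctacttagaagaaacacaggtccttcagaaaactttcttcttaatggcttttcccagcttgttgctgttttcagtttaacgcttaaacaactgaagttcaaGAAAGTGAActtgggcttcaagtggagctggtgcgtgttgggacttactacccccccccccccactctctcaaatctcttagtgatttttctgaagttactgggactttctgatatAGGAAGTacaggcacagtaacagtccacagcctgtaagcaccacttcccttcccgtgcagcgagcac
Ms4a6b: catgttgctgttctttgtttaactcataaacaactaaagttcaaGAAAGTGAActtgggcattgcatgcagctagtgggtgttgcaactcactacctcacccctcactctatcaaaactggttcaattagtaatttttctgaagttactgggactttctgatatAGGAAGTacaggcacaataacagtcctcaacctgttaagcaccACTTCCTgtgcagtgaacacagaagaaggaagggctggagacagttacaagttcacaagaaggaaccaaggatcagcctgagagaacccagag
In the best local alignment Ms4a4c and Ms4a4b shared 229 of 301 aligned positions (76.1%). Ms4a6c and Ms4a6b shared 193 of 234 (82.5%). Aligned from end to end, Ms4a4c and Ms4a4b were identical at 73.8% of positions and Ms4a6c and Ms4a6b at 52.3%, since their like stretches are offset. The promoters of Ms4a4a and Ms4a4d were identical to each other and to those of Ms4a4b and Ms4a4c at only 48.9% to 50% of positions. Ms4a6c and Ms4a6b both held the match GAAAGTGAA, which started 133 and 206 bases before the start site. Across all 32851 promoters of the table, 8.56% held GAAANNGAA and 9.35% held AGGAAGT. The full interferon-stimulated response element, GAAANNGAAA, which overlaps the shorter one, was in 3.44% of all promoters, and a STAT element, TTCNNNGAA, in 8.30%. Neither was in the promoters of the 7 matched members. Ms4a7 has 2 start sites in the table, and the promoter of each held 1 match to GAAANNGAA, while the promoters of Ms4a4c, Ms4a4b, Ms4a4a and Ms4a4d held none of the 4 elements. The shorter element was chosen after the sequences had been seen, and a match is a description of letters only.

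The level of every member was higher on the 5'ss-VMO arrays than on the control arrays, and for 6 of the 8 the pA-VMO arrays lay between them without overlap. Levels are log2 values of the deposited table, and a step of 1 is a doubling. They are not compared between genes. A gene was tested if its mean over the 6 arrays was at least 5.21, the 25th percentile of all named genes, which 14953 genes reached.

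**Figure D1:**
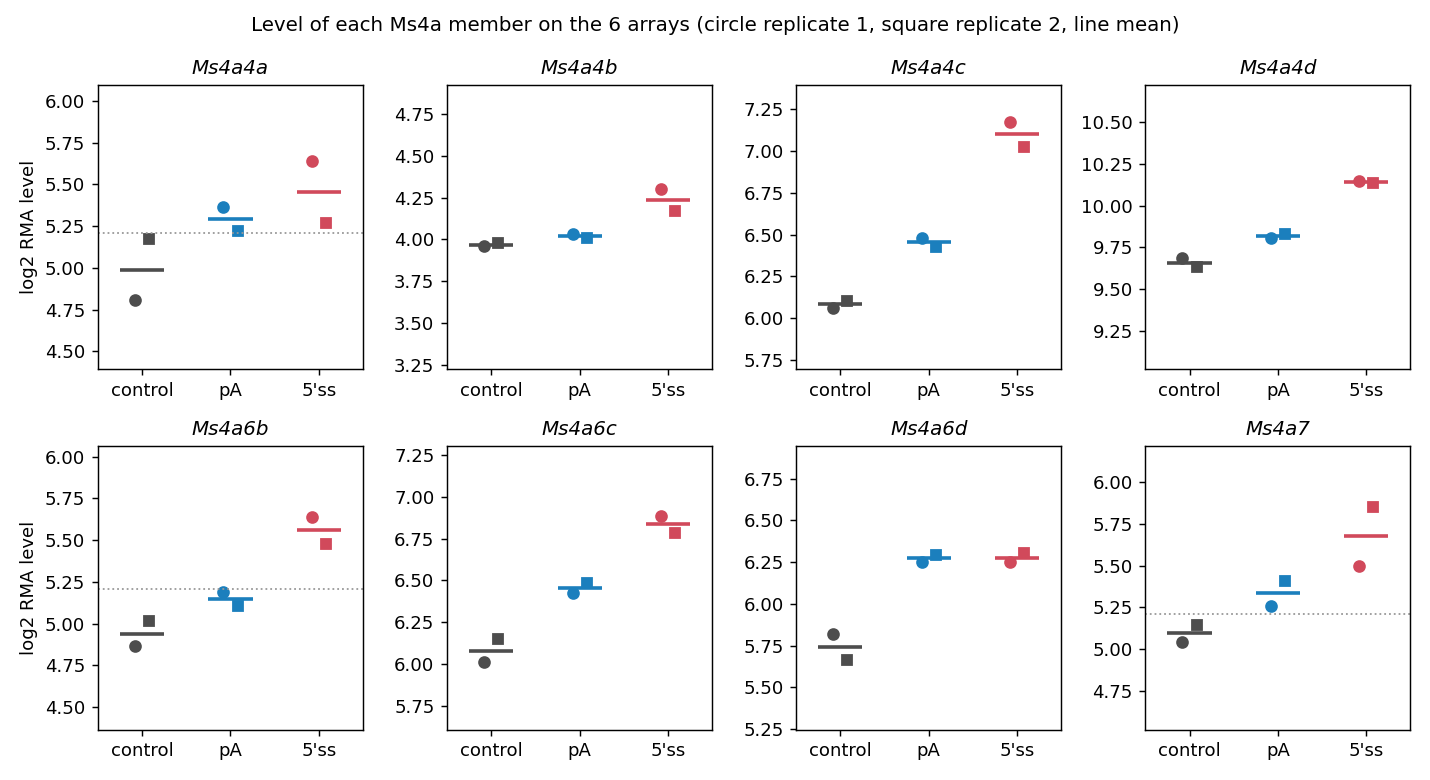
Level (log2) of each of the 8 Ms4a members on each array, by group. Each panel spans the same number of log2 units, circles are replicate 1, squares replicate 2, short lines the group mean, and the dotted line is the floor of 5.21 where it falls in the panel. Ms4a4c goes from 6.08 (control mean) to 6.45 (pA-VMO) and 7.10 (5'ss-VMO), while Ms4a6d has means of 6.27 and 6.28 with the reagents.

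Of the Ms4a4 subfamily, Ms4a4c moved the most. It was at 6.06 and 6.10 with control VMO, 6.48 and 6.43 with pA-VMO and 7.18 and 7.03 with 5'ss-VMO. The 3 groups did not overlap. The difference between 5'ss-VMO and control was 1.02 ± 0.07 (log2, SE, n = 2 arrays per group; 2.03-fold) with an adjusted p of 0.0014 (limma, Benjamini-Hochberg over all genes tested, as for all adjusted p values here). This call was made in each of the 6 fits that left out 1 array. Ms4a4d, which lies beyond Ms4a6b from the other Ms4a4 genes, was at 9.68 and 9.63 with control VMO, 9.81 and 9.83 with pA-VMO and 10.15 and 10.14 with 5'ss-VMO. Its groups did not overlap either, and its 5'ss-VMO arrays differed from each other by 0.01. The difference from control was 0.48 ± 0.06 with 5'ss-VMO (1.40-fold, adjusted p = 0.0142). It was called in 2 of the 6 fits that left out 1 array, those without a pA-VMO array.

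Ms4a4a and Ms4a4b were dim. Ms4a4a was at 4.80 and 5.18 with control VMO, 5.36 and 5.22 with pA-VMO and 5.64 and 5.27 with 5'ss-VMO. The control arrays were below both other groups, but the 2 treated groups overlapped. Ms4a4a had the widest gap between arrays of a group among the members, 0.37 with control VMO and 0.38 with 5'ss-VMO. Its difference of 0.46 ± 0.14 between 5'ss-VMO and control did not pass the test (adjusted p = 0.223), and it ran from 0.28 to 0.65 in the fits that left out 1 array. Its mean passed the floor through the treated arrays, since both control values were below it. Ms4a4b had 3.96 and 3.98 with control VMO, 4.04 and 4.01 with pA-VMO and 4.30 and 4.17 with 5'ss-VMO, in that order without overlap. All 6 of its values were below the floor of 5.21, and it was the 1 member left out of the test. Fitted without the floor, it lay 0.27 ± 0.07 above control with 5'ss-VMO (adjusted p = 0.285 over 19938 genes).

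In the Ms4a6 subfamily, Ms4a6c and Ms4a6b followed the order of Ms4a4c, and Ms4a6d did not. Ms4a6c was at 6.01 and 6.15 with control VMO, 6.42 and 6.48 with pA-VMO and 6.89 and 6.79 with 5'ss-VMO. Its groups did not overlap, and it rose by 0.76 ± 0.07 with 5'ss-VMO (1.69-fold, adjusted p = 0.00551). The call was lost in 1 of the 6 fits, the one without control replicate 1. Ms4a6b was at 4.87 and 5.01 with control VMO, 5.19 and 5.11 with pA-VMO and 5.64 and 5.48 with 5'ss-VMO. Of its 6 values 4 were below the floor, and its mean of 5.22 passed the floor through the 5'ss-VMO arrays. Its difference from control was 0.62 ± 0.08 with 5'ss-VMO (1.54-fold, adjusted p = 0.0151), called in 3 of the 6 fits and lost without either control array or 5'ss-VMO replicate 1.

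Ms4a6d lay above control by a like amount with both reagents. It was at 5.82 and 5.66 with control VMO, 6.25 and 6.29 with pA-VMO and 6.25 and 6.31 with 5'ss-VMO. Both treated groups were above control and overlapped each other. With 5'ss-VMO it rose by 0.54 ± 0.07 (1.45-fold, adjusted p = 0.0172), called in 2 of the 6 fits, those without a pA-VMO array. With pA-VMO it lay 0.53 ± 0.07 above control (1.45-fold) and did not pass the test there (adjusted p = 0.154), where the threshold was reached by 1 gene of 14953 in all. The difference between the reagents was -0.004 ± 0.074, with a 95% interval from -0.17 to 0.16.

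Ms4a7, a marker of tissue macrophages, was at 5.04 and 5.15 with control VMO, 5.26 and 5.41 with pA-VMO and 5.50 and 5.85 with 5'ss-VMO. The groups did not overlap, but the 5'ss-VMO arrays differed by 0.35. Both control arrays were below the floor. The difference between 5'ss-VMO and control was 0.58 ± 0.11 (1.50-fold) and missed the threshold (adjusted p = 0.0707). It passed in 1 of the 6 fits that left out 1 array, the one without 5'ss-VMO replicate 1, and also with an intensity trend in the fit and with arrays set to one median. On the 5'ss-VMO arrays Ms4a7 was higher in replicate 2, whereas Ms4a4a, Ms4a4b, Ms4a4c, Ms4a6b and Ms4a6c were higher in replicate 1. The gap of Ms4a4d was 0.01 and that of Ms4a6d was 0.06.

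Against control VMO, 5'ss-VMO raised 5 of the 7 tested members past the threshold: Ms4a4c, Ms4a6c, Ms4a6b, Ms4a6d and Ms4a4d. Over all 14953 genes 0.502% were called higher in that comparison. The members were chosen with this comparison known, so the share is a description and no support. The median difference was 0.58 over the 7 tested members and 0.001 over all genes tested. Medians and ranges over the 7 are descriptions too. Both control arrays of Ms4a4a, Ms4a6b and Ms4a7 were below the floor, which these genes passed through treated arrays. Ms4a6b is among the 5 although it passed the floor through its 5'ss-VMO arrays alone, so its call is no support; without it 4 members were called. Without control replicate 1 the number called was 1 (Ms4a4c), and without control replicate 2 it was 2 (Ms4a4c and Ms4a6c). Without 5'ss-VMO replicate 1 the 3 called were Ms4a4c, Ms4a6c and Ms4a7, which is not among the 5, and without 5'ss-VMO replicate 2 they were Ms4a4c, Ms4a6c and Ms4a6b. Without the floor on dim genes the number called was 2, Ms4a4c and Ms4a6c. Both 5'ss-VMO arrays were above both control arrays for 8 of the 8 members. Among genes tested this held for 7 of the 7 members and for 23.2% of all. The 95% intervals of the 8 differences started at 0.10 (Ms4a4b) or higher. They are per gene and not adjusted for the number of genes, and the members were chosen with this comparison known. Ms4a4a and Ms4a7 did not pass the threshold, and Ms4a4b was not tested.

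**Figure D2:**
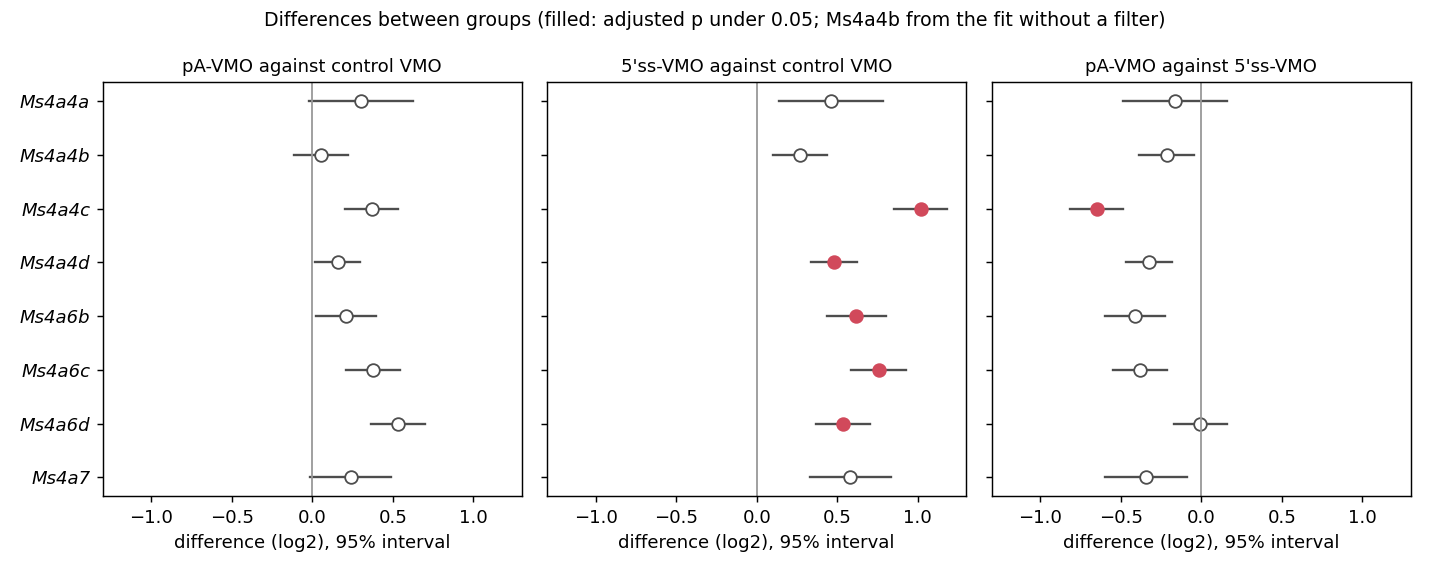
Difference between groups (log2) for each member in the 3 comparisons, with 95% intervals from the fit. Filled points passed an adjusted p of 0.05: 5 members for 5'ss-VMO against control VMO, 1 between the reagents (Ms4a4c, -0.65), and 0 for pA-VMO against control VMO.

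With pA-VMO the members lay above control by less, except Ms4a6d. The 8 differences ran from 0.05 (Ms4a4b) to 0.53 (Ms4a6d), with Ms4a6c at 0.38 ± 0.07 and Ms4a4c at 0.37 ± 0.07 (adjusted p = 0.204 for each). Ms4a4a was at 0.30, Ms4a7 at 0.24, Ms4a6b at 0.21 and Ms4a4d at 0.16. limma called 0 of the 7 tested members higher, and 0% of the 14953 genes, while 5 members and 1712 genes had an unadjusted p under 0.05. The median was 0.30 over the 7 members and 0.01 over all genes tested. Both pA-VMO arrays were above both control arrays for 8 of the 8 members. Among genes tested this held for 7 of the 7 members and for 24.1% of all. This comparison and that of 5'ss-VMO share the control arrays, so they are not independent. The control arrays of Ms4a6d differed by 0.16, and its difference from control ran from 0.45 to 0.61 in the 6 fits that left out 1 array.

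The comparison of the reagents does not use the control arrays for its difference. Ms4a4c was lower with pA-VMO than with 5'ss-VMO by 0.65 ± 0.07 on the log2 scale (1.57-fold, adjusted p = 0.0249). It was the 1 member called, beside 0.0468% of all genes called lower. That call was made in 1 of the 6 fits that left out 1 array, the one without 5'ss-VMO replicate 2, and the difference ran from -0.72 to -0.57 in those fits. Ms4a6b at -0.41 ± 0.08, Ms4a6c at -0.38 ± 0.07 and Ms4a4d at -0.32 ± 0.06 did not pass the test (adjusted p = 0.0802, 0.0736 and 0.0718). Ms4a7 lay at -0.34 (adjusted p = 0.197) and Ms4a4a at -0.16 (adjusted p = 0.619). Both 5'ss-VMO arrays were above both pA-VMO arrays for 6 of the 8 members, the exceptions being Ms4a4a and Ms4a6d. Among genes tested this held for 5 of the 7 members and for 23.7% of all. All 3 groups were in the order control, pA-VMO, 5'ss-VMO without overlap for the same 6 members, of which 5 were tested. The same held for 2.94% of the genes tested. Of the 6, Ms4a4b was below the floor on every array, and Ms4a6b and Ms4a7 passed it through treated arrays. The members were also chosen with earlier results known, so these shares are descriptions and no support. Whether Ms4a6d differs from the other members in its response was not tested.

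The members form 1 unbroken run among the Ms4a genes measured on chromosome 19. In the RefSeq order they go from Ms4a7 over Ms4a4a, Ms4a4c, Ms4a4b, Ms4a6c, Ms4a6b and Ms4a4d to Ms4a6d, with Ms4a5 before them and Ms4a2 after them; Ms4a14, between Ms4a5 and Ms4a7, was not analysed here. Of the other 11 Ms4a genes measured, 7 were below the floor on every array, namely Ms4a1 (3.83 to 4.13), Ms4a2 (3.37 to 3.65), Ms4a3, Ms4a5, Ms4a13, Ms4a19 and Ms4a20. The 4 that were tested, Ms4a10, Ms4a15, Ms4a8a and Ms4a12, lay between -0.23 and -0.07 with 5'ss-VMO against control, and 0 were called in any of the 3 comparisons. Ms4a5, the measured neighbour of the run and below the floor on every array, lay 0.28 ± 0.14 above control with 5'ss-VMO when fitted without the floor (adjusted p = 0.493), a difference like that of the dim member Ms4a4b. It was at 3.26 and 3.21 with control VMO and at 3.77 and 3.26 with 5'ss-VMO, so 1 array carried it. The lowest of them, Ms4a15, was at 6.98 and 7.01 with control VMO and at 6.64 and 6.89 with 5'ss-VMO (difference -0.23 ± 0.09, adjusted p = 0.314). Tmem176a and Tmem176b, which encode related membrane proteins, lay at -0.15 and -0.17 with 5'ss-VMO (adjusted p = 0.378 and 0.31). The long noncoding RNA AW112010, which lies between Ms4a18 and Ms4a8a, was 0.23 ± 0.07 above control with 5'ss-VMO (adjusted p = 0.229) and at -0.15 with pA-VMO. Between the reagents it lay at -0.38 (adjusted p = 0.0687).

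**Figure D3:**
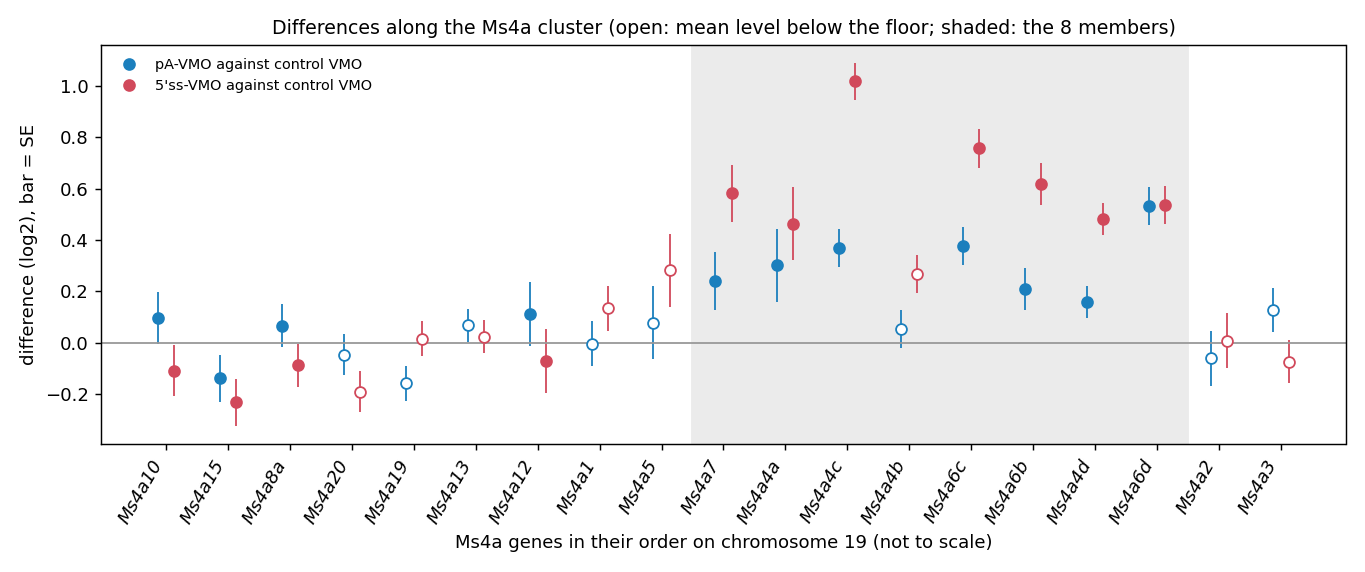
Difference from control VMO (log2, bars are SE) for the 19 Ms4a genes measured, in their order on chromosome 19 and not to scale. Open points are genes with a mean below the floor, fitted without it. The shaded run holds the 8 members, whose 5'ss-VMO differences go from 0.27 to 1.02, while the tested genes outside it lie at or below 0.11 in both comparisons.

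Molecules reported to pair with Ms4a proteins were read from a list of 10 genes, of which 7 were tested and 0 were called in any comparison. With 5'ss-VMO 4 of the 7 lay above control, with a median of 0.05, and with pA-VMO 7 of the 7, with a median of 0.16. Between the reagents 6 of the 7 were higher with pA-VMO, with a median of 0.12, the opposite sign to the members' median of -0.34. Fcer1g, the common gamma chain that shares the IgE receptor with Ms4a2, was at 7.26 and 7.66 with control VMO, 7.74 and 7.72 with pA-VMO and 8.06 and 8.01 with 5'ss-VMO, without overlap. Its difference of 0.58 ± 0.11 between 5'ss-VMO and control missed the threshold (adjusted p = 0.0707). Clec7a, the partner described for Ms4a4a, lay at 0.05 ± 0.10 with 5'ss-VMO (adjusted p = 0.854) and Tnfrsf18 at -0.09 ± 0.12 (adjusted p = 0.787). The adaptor Tyrobp lay at 0.13 (adjusted p = 0.428) and its receptor Trem2 at -0.07 (adjusted p = 0.735). The stem cell factor receptor Kit lay at 0.07 (adjusted p = 0.687) and the B cell receptor chain Cd79b at -0.04 (adjusted p = 0.84). Vsig4 was below the floor on every array (3.37 to 3.84), as were Fcer1a and Cd79a.

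Of the markers of the labelled cells, all 13 FAP markers measured passed the floor, and their mean level was between 10.79 and 10.95 on the 6 arrays. Passing the floor does not show that a cell type was present, since 14953 of the 19938 named genes reached it. Of 17 macrophage markers besides Ms4a7, 16 were tested, and Cd163 was below the floor on every array. The mean level of the 16 was 6.58 and 6.76 with control VMO, 6.85 and 6.83 with pA-VMO and 6.94 and 6.91 with 5'ss-VMO, in the order of groups seen for 6 members. The means of the pan-leukocyte and endothelial markers and of the interferon-stimulated genes were in that order too, without overlap. With 5'ss-VMO 14 of the 16 lay above control, with a median of 0.21, and 2 were called higher, the complement genes C1qc (0.50, adjusted p = 0.0249) and C1qa (0.39, adjusted p = 0.0472). Their differences ran from -0.07 (Trem2) to 0.58 (Fcer1g), beside 0.46 to 1.02 for the 7 tested members. With pA-VMO 14 of the 16 lay above control as well, with a median of 0.17 and 0 called. Between the reagents 7 of the 16 macrophage markers lay higher with pA-VMO, with a median of -0.10. In bulk RNA more cells of a type and more RNA per cell cannot be told apart.

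Each of the other lists of cell markers held 0 or 1 call with 5'ss-VMO. Over all 14953 genes tested, 0.502% were called higher and 12 genes lower. The lists were short, and their shares were not tested against that of all genes. Of the 10 pan-leukocyte genes 1, the surface glycoprotein Cd52, was called higher with 5'ss-VMO (0.71, adjusted p = 0.0472), and the median was 0.19. Of 8 monocyte markers measured 6 were tested, with a median of -0.09. Plac8 was the 1 called, at 0.64 (adjusted p = 0.00802). Of 15 T and NK cell markers measured 4 were below the floor on every array, 11 were tested, and 0 were called. Their median was 0.01, and the highest was the protease Gzmb at 0.54 (adjusted p = 0.0543). Of 7 B cell and 8 mast cell markers measured, 4 and 6 were below the floor on every array. The 6 tested dendritic cell markers had a median of -0.07 and the 4 tested neutrophil markers 0.02, with 0 called in either. FAP markers had a median of -0.07, and 1 of the 13, the surface peptidase Dpp4, was called lower (-0.52, adjusted p = 0.0318). The 8 tested endothelial markers had a median of 0.24, and 1 was called higher, the cadherin Cdh5 (0.70, adjusted p = 0.00551). Of these 8, 5 lay above control, and the lowest was Tek at -0.19. The 10 satellite cell and myoblast markers had a median of 0.28 with 5'ss-VMO, above that of the macrophage markers, and 1 was called higher, the acetylcholine receptor subunit Chrna1 (0.62, adjusted p = 0.0283). With pA-VMO 5 of these 10 lay above control, with a median of -0.01, beside 0.17 for the macrophage markers. The part of any of these cells in the Ms4a values was not tested.

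Interferon-stimulated genes had a median near that of the members with 5'ss-VMO and a lower one with pA-VMO. All 26 measured were tested, 26 lay above control with 5'ss-VMO and 14 were called higher, with a median of 0.52 and a range from 0.01 to 0.99. Their mean level was 8.85 and 8.96 with control VMO, 9.002 and 9.11 with pA-VMO and 9.37 on each 5'ss-VMO array. Their part in the Ms4a values was not tested. The 3 with the smallest p were Oas2, a sensor of double-stranded RNA, at 0.82 (adjusted p = 0.00215), the RNA helicase Dhx58 at 0.62 (adjusted p = 0.0105) and the nucleic acid sensor Zbp1 at 0.58 (adjusted p = 0.0105). With pA-VMO 22 of the 26 lay above control, with a median of 0.14, beside 0.30 for the 7 tested members, and 0 called. Between the reagents 0 of the 26 lay higher with pA-VMO, and the median was -0.32, beside -0.34 for the members.

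**Figure D4:**
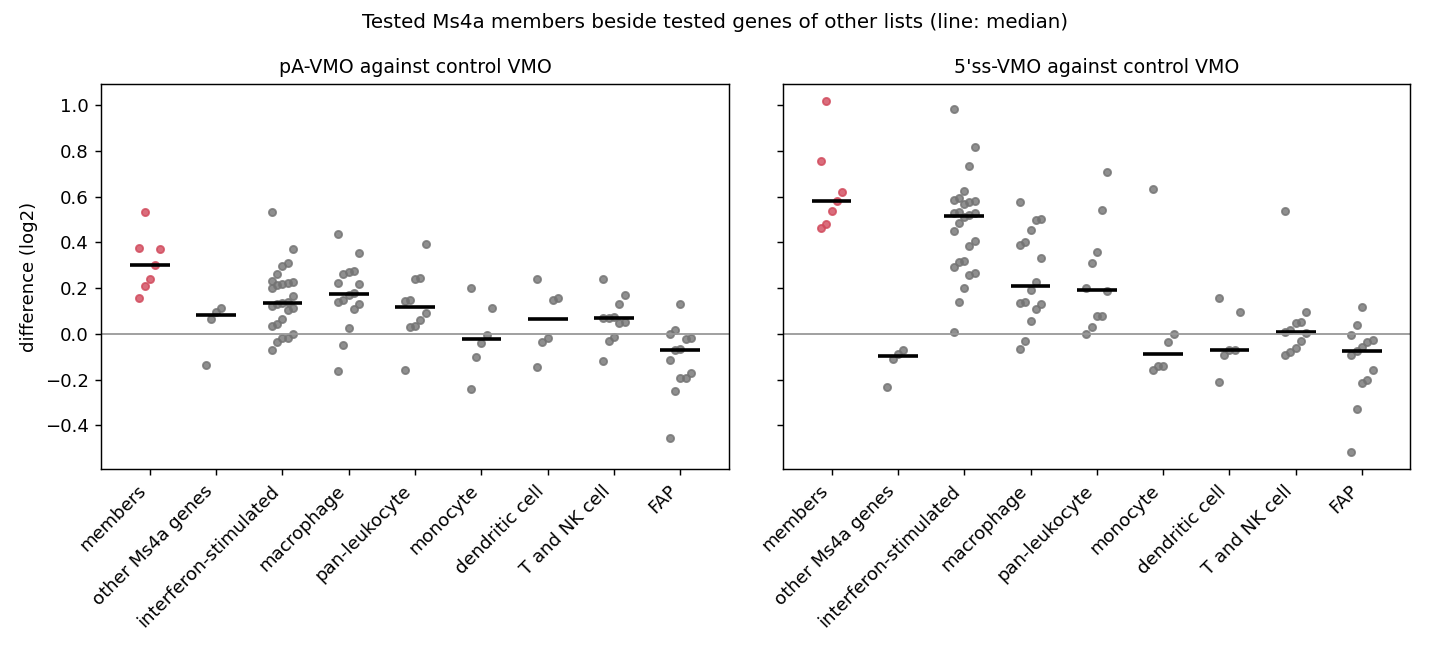
Difference from control VMO (log2) of each tested gene in 9 lists, with pA-VMO on the left and 5'ss-VMO on the right; black lines are medians. With 5'ss-VMO the members (median 0.58) and the interferon-stimulated genes (0.52) lie above the macrophage markers (0.21), the T and NK cell markers (0.01) and the other Ms4a genes (-0.10).

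The genes whose profile over the 6 arrays was nearest to a member's were found by the root mean square difference of log2 levels, each gene minus its own mean, over 14088 named genes outside the family. This is a description over 6 arrays in 3 groups, and genes that differ between the groups are near each other by that alone. Nearest to Ms4a4c were the Ifi200 family gene Ifi206 (0.0761), the leucine-rich repeat gene Lrrn1 (0.088) and Oas2 (0.114). Oas2 was also nearest to Ms4a6c (0.0521), before Oas1b (0.0686) and Mpeg1 (0.0767), which encodes a pore-forming protein of macrophages. Ms4a4d was nearest to Samd9l (0.0367), the interferon signalling factor Stat2 (0.0375) and Ifi27l2a (0.0389), and Ms4a6b to Gbp9 (0.0599), Oas1b (0.0629) and Gzmb (0.0693). Ms4a7 was nearest to Oas1a (0.0583), the smooth muscle gene Cnn1 (0.0656) and Dhx58 (0.071). The genes near Ms4a4a were the endothelial claudin Cldn5 (0.106), the macrophage receptor Adgre1 (0.107) and the leukocyte actin bundler Lcp1 (0.109). Ms4a6d had other neighbours: the mitotic kinesin Kif20b (0.0737), Ptprn (0.0753) and the proliferation marker Mki67 (0.079). Among the members, Ms4a6b and Ms4a6c were the nearest pair (0.0855) and Ms4a4b and Ms4a4c the farthest (0.308). Ms4a4c and Ms4a6d were 0.287 apart. The distance takes in the size of the differences as well as their pattern. Pearson r over the arrays was 0.96 for Ms4a4b and Ms4a4c and 0.75 for Ms4a4c and Ms4a6d.

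**Figure D5:**
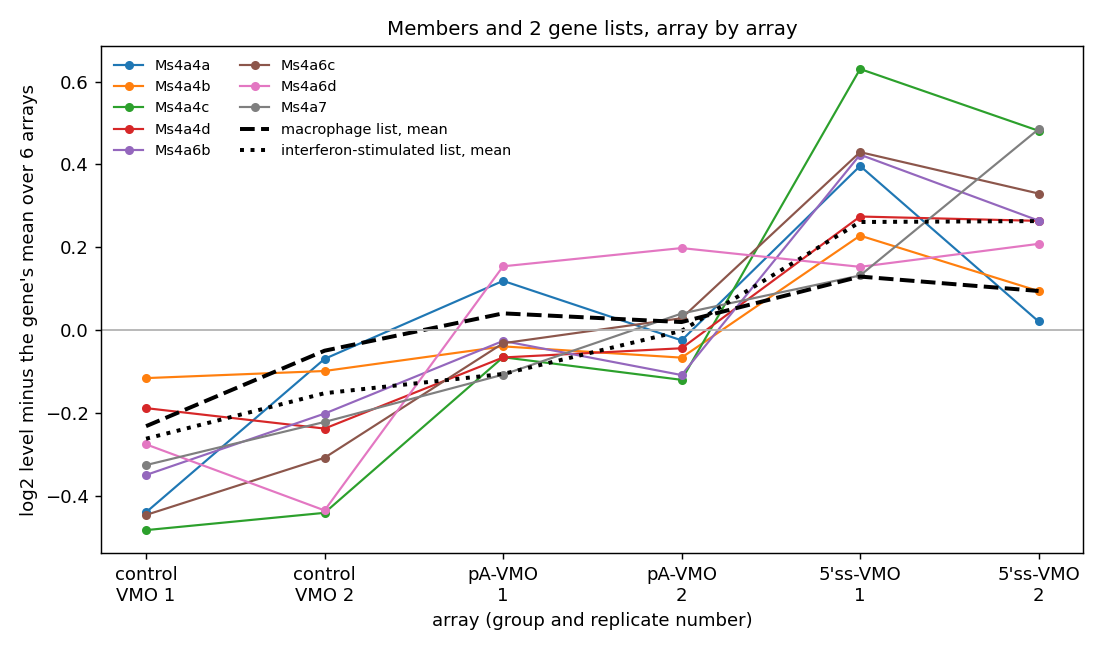
Level of each member on each array minus that gene's mean over the 6 arrays (log2), with the mean of 16 macrophage markers (dashed) and 26 interferon-stimulated genes (dotted). Lines only link the points of 1 gene or list, since arrays have no order. Ms4a6d has overlapping pA-VMO and 5'ss-VMO arrays, and Ms4a7 is highest on 5'ss-VMO replicate 2.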

How the data were processed

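Total RNA of FAPs frozen after isolation, 100 ng per array, was measured on Affymetrix Mouse 1.0 ST arrays, 6 in all, per the labels' protocols. The deposited values are log2 levels that the authors made with Affymetrix Expression Console by RMA, per the submitters' processing notes; the sources used here give no version or settings. RMA makes array distributions alike and compresses differences of dim probe sets. Array medians ran from 5.96 to 6.00, and the lowest correlation between arrays was 0.990. Of 35556 probe sets, 21789 have 1 gene symbol in the platform annotation, 1621 several and 12146 none; these last 2 kinds were not named.

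Group means were fitted with limma 3.58.1 (R 4.3.3; lmFit, contrasts.fit, eBayes without trend) on all 6 arrays, with 3 residual and 6.06 prior degrees of freedom. Tests were two-sided, and the threshold was an adjusted p of 0.05 (Benjamini-Hochberg, over 14953 genes). An exact permutation of 2 against 2 arrays cannot go below p = 0.333. Precision is limited by the few arrays, with a median standard error of 0.07 per difference. The fit was tested on simulated data. The members, gene lists and tests were chosen with earlier results of these data known. The text names all members, all measured genes of the family and partner lists, up to 3 genes of smallest p per other list, and the 3 nearest profiles per tested member; other genes named in the text were chosen after their values were seen. Promoter letters were aligned with Biopython 1.88. Alternatives were the floor, variance model, arrays fitted, replicate block, probe set rule, scaling and leaving out each array.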

Additional observations from a re-analysis of the deposited data

How the results depend on the processing

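Over the alternatives, none of the 7 tested members changed direction against control VMO; Ms4a4b was fitted in 1 setting only. The number of members called for 5'ss-VMO against control, 5 as reported, was 2 without the floor on dim genes and 3 with a floor at the median level, where only Ms4a4c, Ms4a4d and Ms4a6c were tested. It was 6, with Ms4a7 added, with an intensity trend and with arrays set to one median. In the 6 fits that left out 1 array it ran from 1 to 5. For pA-VMO against control it was 1 (Ms4a6d) with an intensity trend in eBayes, and 0 in the 6 fits that left out 1 array. Between the reagents it was 0 without the floor, 0 with only the arrays compared, 3 with the floor at the median, 3 with the trend, 4 with all arrays set to one median, and 0 to 1 in the fits that left out 1 array. Between the reagents the sign turned for Ms4a4a without 5'ss-VMO replicate 1 (0.026, the range being -0.35 to 0.026), and for Ms4a6d without pA-VMO replicate 1 (0.018) or 5'ss-VMO replicate 2 (0.023, the range being -0.032 to 0.023). Over all genes, calls for 5'ss-VMO against control went from 87 to 24 without the floor, 181 with the floor at the median, 266 with the trend, and 8 to 76 in the fits that left out 1 array. For pA-VMO against control they went from 1 to 0 without the floor and 51 with the trend. Between the reagents they went from 9 to 3 without the floor, 102 with the floor at the median and 197 with the trend. They were 111 with arrays set to one median, 15 with the mean of all probe sets of a gene and 23 with the replicate block. The cause of these differences was not tested. Deviations of the arrays numbered 2 correlated at -0.10, 0.02 and -0.03 between groups. These values show no pairing by replicate number over all genes tested, but they cannot exclude it for single genes. Ms4a7 was higher in replicate 2 than in replicate 1 in all 3 groups, and no other member kept 1 order in all 3. A fit with the replicate number as a block called 6, 0 and 1 members in the 3 comparisons, with Ms4a7 as the addition. Groups of 2 arrays and levels near the floor limit what Ms4a4a, Ms4a4b, Ms4a6b and Ms4a7 can show.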
